A study of Mus musculus with 18 samples.

Results

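The 9 genes of the route that turns tryptophan into NAD+ were followed in the livers of riboflavin-deficient mice. They are Tdo2, Ido2, Afmid, Kmo, Kynu, Haao, Acmsd, Qprt and Nadsyn1, taken by gene name from the 54532 genes of each table, and all 9 were found. The list was chosen by pathway membership with earlier results of both diet comparisons known, so its counts and adjusted p-values describe these libraries and are not independent evidence that the pathway responds. All mice were male C57BL/6J, began their diets at 4 wk of age and were fasted overnight before the liver was taken, with 1 library per mouse. Ctrl mice (n = 5) ate the complete defined diet and B2D mice (n = 5) the same diet with 99% of the riboflavin removed, both for 4 wk and with no drug. Ctrl+FF (n = 4) and B2D+FF (n = 4) mice ate those diets for 9 wk and received fenofibrate, an activator of the nuclear receptor PPARα, by gavage at 300 mg/kg daily over the last 2 wk, the final dose 2 hr before harvest. Fenofibrate, the length of the diet and the table therefore changed together, and their parts in a difference between the tables cannot be told apart.

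Liver takes most of the dietary tryptophan that is not built into protein down the kynurenine pathway. Tdo2 or its relatives open the indole ring, Afmid removes the formyl group, Kmo hydroxylates kynurenine, Kynu cuts off alanine, and Haao opens the ring again to give aminocarboxymuconate semialdehyde. That intermediate stands at a fork. Acmsd decarboxylates it toward picolinate and full oxidation, and what escapes closes on its own to quinolinate, which Qprt turns into a nicotinate nucleotide and which Nadsyn1 finishes as NAD+ by amidation. Kmo carries FAD, the cofactor made from riboflavin, and Kynu carries pyridoxal phosphate, the active form of vitamin B6.

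The genes lie apart in the genome (GRCm38 coordinates of the tables). Tdo2 (ENSMUSG00000028011) is on chromosome 3 from 81957090 to 81976202, Ido2 (ENSMUSG00000031549) on chromosome 8 from 24531892 to 24576333, and Afmid (ENSMUSG00000017718) on chromosome 11 from 117825924 to 117839908. Kmo (ENSMUSG00000039783) is on chromosome 1 from 175620381 to 175662116, Kynu (ENSMUSG00000026866) on chromosome 2 from 43555329 to 43682715, and Haao (ENSMUSG00000000673) on chromosome 17 from 83831356 to 83846790. Acmsd (ENSMUSG00000026348) is on chromosome 1 from 127729413 to 127767978, Qprt (ENSMUSG00000030674) on chromosome 7 from 127107114 to 127122226, and Nadsyn1 (ENSMUSG00000031090) on chromosome 7 from 143795584 to 143822849. Each value counts reads over the whole exon model of a gene, untranslated exon sequence included. Whether reads were counted by strand is not stated in the methods, so overlapping genes on either strand may matter. Kmo overlaps Fh1 on the other strand, with 0 bases of exon shared. Afmid shares 83 exon bases (2.3% of its own) with Tk1. It shares 1566 (44.2%) with the predicted gene Gm20708, which lies on the same strand and was listed at 0 in all 18 libraries. The methods do not state how reads on bases shared by 2 genes were assigned. The 0 therefore does not show that Afmid lost no reads there, and its level relative to other genes may be understated. Acmsd shares 94 exon bases (3.3%) with an antisense RNA that stayed at or below 0.293 FPKM. For Haao the tables used an exon length of 1222 bases, whereas the GENCODE vM21 annotation gives 4681, so its level relative to other genes depends on the gene model. Haao was not recounted on the longer model.

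RefSeq (GRCm38.p6) sequences of the 250 bases before the transcription start were searched for 6 of the 9 genes (Tdo2, Afmid, Kmo, Haao, Qprt and Nadsyn1). The RefSeq start of Kmo lies 11812 bases inside the gene start of the tables, and those of Tdo2 and Qprt 474 and 197 bases inside. For these genes the window is therefore not the sequence before the start of the gene model measured here. The letters AGGTCA, the core hexamer bound by many nuclear receptors, occurred on either strand in 2 of the 6 windows (Tdo2 and Haao), against 13.84% of 27025 promoter windows of the same length. The STAT5 letters TTCNNNGAA occurred in 1 of the 6 (Qprt), against 7.18% of all windows, the CCAAT box CCAAT in 1 (Tdo2), against 34.46%, and the TATA box TATAAA in 1 (Tdo2), against 12.97%. The window of Haao is shown because Haao was lower on the deficient diet in both experiments and its RefSeq start is the gene start of the tables. Capitals mark the hexamer, which reads TGACCT on the strand shown and begins 58 bases before the start.
Haao, chr17:83846791-83847040, minus strand: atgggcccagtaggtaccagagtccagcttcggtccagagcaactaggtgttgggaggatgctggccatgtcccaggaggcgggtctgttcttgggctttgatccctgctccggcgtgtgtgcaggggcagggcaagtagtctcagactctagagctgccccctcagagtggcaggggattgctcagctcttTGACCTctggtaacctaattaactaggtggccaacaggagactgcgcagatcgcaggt
The match describes letters and says nothing of what binds there.

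Expression was given as FPKM, the fragments counted on a gene per kilobase of its exons after scaling for library size. Between 15320729 and 21898502 reads fell on genes in each library, and the pathway genes were read from 85 times (Acmsd, in a B2D liver) to 98692 times (Tdo2, in a B2D+FF liver), so counting error is largest for Acmsd. Log2(FPKM + 1) of mice in the same group correlated with r from 0.958 to 0.990, and no pair of libraries within a group was identical. Hepatocyte markers (Alb, Ttr, Apoa1, Cps1, Serpina1a) summed to 31120 to 41240 FPKM in Ctrl, 31710 to 45430 in B2D, 21110 to 24310 in Ctrl+FF and 18160 to 21080 in B2D+FF. Their sums, in which Alb was the largest part, were lower in B2D+FF than in Ctrl+FF with no overlap, though the nearest sums were 21080 and 21110. Serpina1a passed as lower (limma adjusted p = 0.0312), and Alb and Ttr were lower and apart without passing. Apoa1 and Cps1 overlapped and had higher means in B2D+FF, at 130% and 162% of Ctrl+FF, so the 5 markers did not move together. All 6 Kupffer cell and macrophage markers had negative diet differences in both experiments, and their summed FPKM was 74.3 to 97.0 in Ctrl, 56.3 to 84.9 in B2D, 63.5 to 110 in Ctrl+FF and 39.5 to 79.8 in B2D+FF. Of these 6, Clec4f passed the test as lower in B2D. The adipocyte markers Adipoq and Plin1 summed to 7.43 in B2D 2 and 2.76 in Ctrl+FF 1 and to at most 0.413 in every other library, and the neutrophil markers S100a8 and S100a9 reached 11.0 in B2D+FF 2. The part of these differences in the results below was not tested, except that for some genes results are also given without those libraries. In whole liver, fewer cells that express a gene and less RNA per cell cannot be told apart. Mean FPKM of PPARα targets in Ctrl and Ctrl+FF was 2333 and 4204 for Cyp4a10, 3349 and 5934 for Cyp4a14, and 95.9 and 156 for Vnn1. It was 105 and 477 for Acot1 and 936 and 5551 for Ehhadh. The target Pdk4, which encodes a kinase that shuts off pyruvate dehydrogenase, differed most, at 2.97 to 7.97 FPKM in Ctrl and at 79.4 to 148 in Ctrl+FF. Between B2D and Ctrl none of these targets passed. Means were higher in B2D for Pdk4 (12.3 against 4.62, limma adjusted p = 0.0687), Cyp4a14 (5220, 0.0659) and Ehhadh (1898, 0.070). They were also higher for Acot1 (126, 0.404) and Cyp4a10 (2604, 0.618), and lower for Vnn1 (88.9, 0.820).

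In the Ctrl liver the pathway was uneven. Tdo2, the dioxygenase that commits tryptophan to it, had the highest level with 782 ± 128 FPKM (SD, n = 5). Haao followed at 228 ± 31.9 on the length used in the tables, then Kmo at 61.3 ± 8.56, Qprt at 48.6 ± 5.79, Kynu at 31.3 ± 4.03, Ido2 at 14.8 ± 2.84, Afmid at 14.5 ± 2.45, Nadsyn1 at 6.53 ± 0.669 and Acmsd at 5.97 ± 2.09. The ranges over mice overlapped for the neighbours Kmo and Qprt, Ido2 and Afmid, and Nadsyn1 and Acmsd, so their order is not resolved. Mean levels of the highest and lowest gene differed 131-fold in Ctrl and 429-fold in B2D+FF. The third dioxygenase, Ido1, was listed at 0 in all 18 libraries.

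**Figure D1:**
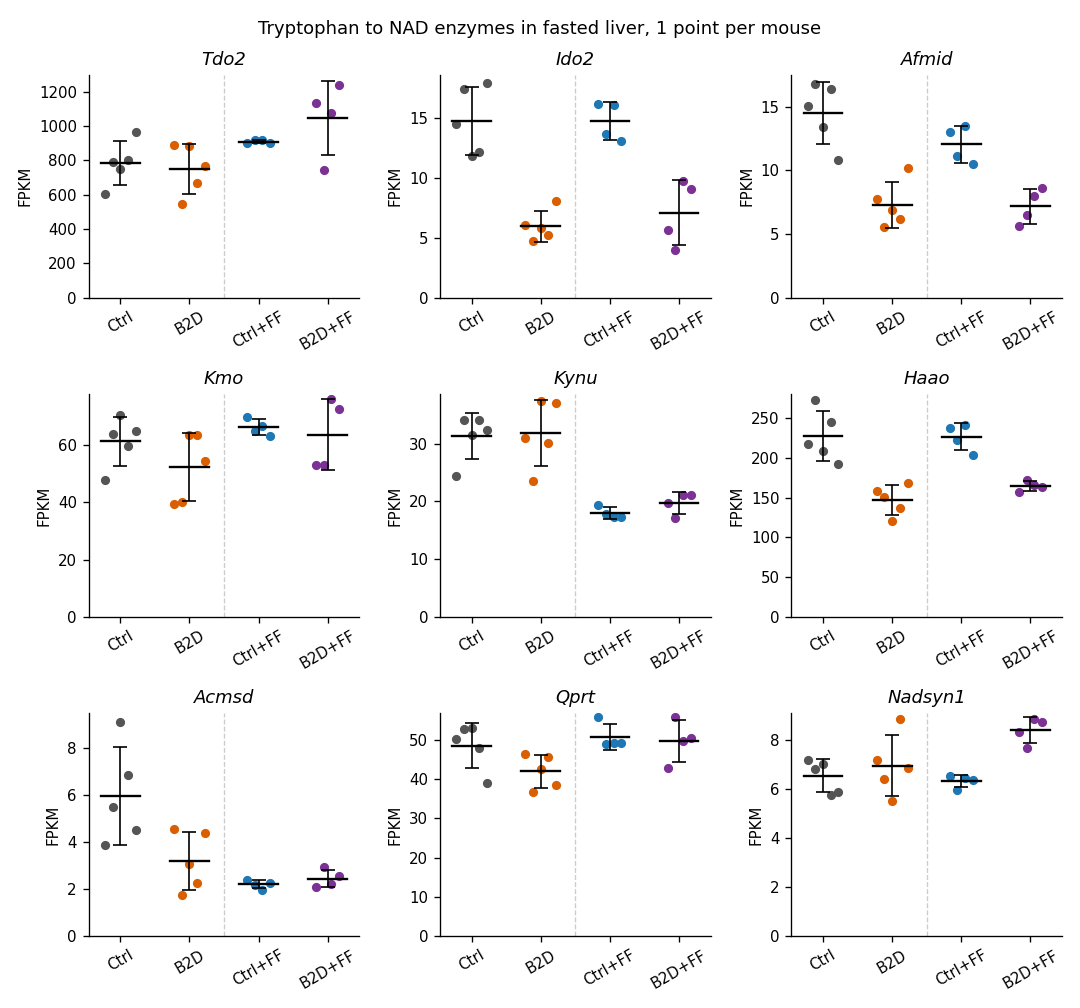
FPKM (linear axes starting at 0, 1 axis per gene) of the 9 enzymes in Ctrl and B2D (n = 5 each) and in Ctrl+FF and B2D+FF (n = 4 each). Points are mice, the long bar is the mean and the whiskers are 1 SD. The dashed line parts the separately normalized tables. Ido2, Afmid and Haao are lower on the deficient diet on both sides of it, with no overlap between diets.

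After 4 wk of deficiency, Ido2, Afmid and Haao were lower in B2D than in Ctrl and the other 6 genes did not pass the test. The threshold was a Benjamini-Hochberg adjusted p under 0.05 from limma over the 11574 genes whose mean FPKM reached 0.5, and log2 differences are on the log2(FPKM + 1) scale, which understates those of low genes. The count was 3 of 9 lower, where 1.94% of all genes tested were lower, and 0 of 9 higher, where 0.769% were higher (limma, with 4 of the 9 at an unadjusted p under 0.05, and the count of higher genes was also 0 with voom). Groups did not overlap for 3 of the 9 in the lower direction, where the share over all genes was 2.89%, and for 0 in the higher direction, where it was 2.08%. The median log2 difference was -0.25 over the 9 genes and -0.0013 over all genes tested. Because the list was chosen with these results known, nothing is read from these shares.

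At the entry step, Tdo2 was at 604, 790, 751, 802 and 963 FPKM in Ctrl 1 to 5 and at 888, 549, 885, 670 and 765 in B2D 1 to 5. The diets overlapped widely, with a log2 difference of -0.07 (95% confidence interval -0.42 to 0.29, limma adjusted p = 0.863). Its lower-expressed relative Ido2, a dioxygenase with weak activity toward tryptophan, behaved otherwise. Ido2 was at 14.5, 17.4, 11.9, 12.2 and 17.9 FPKM in Ctrl and at 6.08, 4.71, 5.80, 5.19 and 8.06 in B2D. All 5 B2D livers lay under the whole Ctrl range, and the mean fell to 40.4% of Ctrl. The log2 difference of -1.18 (SE 0.151, limma adjusted p = 0.00422) ranked 12 by p-value among the genes tested. It held whichever of the 10 mice was omitted, with the largest adjusted p, 0.0170, without Ctrl 2. Without B2D 2, the library with the highest adipocyte markers, it was -1.11 (adjusted p = 0.00958).

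Afmid, the formamidase that releases kynurenine, was at 15.1, 16.8, 13.4, 16.4 and 10.8 FPKM in Ctrl and at 7.74, 5.55, 6.84, 6.14 and 10.2 in B2D. The diets did not overlap, although Ctrl 5 and B2D 5 lay close together. The mean fell to 50.4% of Ctrl, a log2 difference of -0.91 (SE 0.158, limma adjusted p = 0.0126) that also held whichever of the 10 mice was omitted. Its value without B2D 2 was -0.83 (adjusted p = 0.0298), and the largest adjusted p was 0.0449, without Ctrl 4.

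Kmo, the FAD enzyme of the pathway, was at 47.6, 64.0, 70.4, 59.6 and 65.0 FPKM in Ctrl and at 39.5, 40.2, 63.6, 63.5 and 54.5 in B2D. B2D 1 and B2D 2 were below every Ctrl mouse, and the other 3 B2D mice fell within the Ctrl range. The log2 difference was -0.25 with a 95% confidence interval from -0.60 to 0.11 (limma adjusted p = 0.442), an interval that includes no difference. Kynu, the next enzyme, was at 24.4, 34.2, 31.6, 34.1 and 32.4 FPKM in Ctrl and at 31.0, 23.5, 37.5, 30.2 and 37.1 in B2D. Those ranges overlapped, with a log2 difference of 0.01 (95% confidence interval -0.29 to 0.32, limma adjusted p = 0.967).

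Haao, the iron dioxygenase that makes the intermediate at the fork, was at 218, 273, 209, 246 and 192 FPKM in Ctrl and at 159, 151, 121, 137 and 169 in B2D. All B2D mice were below all Ctrl mice, and the mean fell to 64.7% of Ctrl. The log2 difference was -0.62 (SE 0.129, limma adjusted p = 0.0281). The call depended on single mice, since the adjusted p rose to between 0.0513 and 0.0844 without Ctrl 1, Ctrl 2, Ctrl 4, B2D 2, B2D 3 or B2D 4, with log2 differences from -0.64 to -0.56 in those fits.

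At the fork itself, Acmsd was at 3.85, 5.51, 9.12, 6.87 and 4.53 FPKM in Ctrl and at 4.55, 1.76, 3.06, 2.26 and 4.39 in B2D. B2D 2, B2D 3 and B2D 4 were below every Ctrl mouse, but B2D 1 and B2D 5 were within the Ctrl range. Its log2 difference of -0.73 (95% confidence interval -1.24 to -0.23) had an unadjusted p of 0.00826 and missed the threshold after adjustment (limma adjusted p = 0.123), while it passed at 0.0334 with all 4 groups in 1 fit. With no filter on low FPKM the adjusted p of Acmsd was 0.2955. On the NAD+ side, Qprt was at 50.3, 52.9, 53.0, 47.9 and 38.9 FPKM in Ctrl and at 46.5, 36.8, 42.6, 45.6 and 38.6 in B2D, with overlapping ranges and a log2 difference of -0.20 (95% confidence interval -0.45 to 0.05, limma adjusted p = 0.363). The last enzyme, Nadsyn1, was at 7.17, 6.82, 7.02, 5.75 and 5.87 FPKM in Ctrl and at 7.16, 6.38, 5.50, 8.84 and 6.83 in B2D. The Nadsyn1 ranges overlapped too, with a log2 difference of 0.07 (95% confidence interval -0.19 to 0.32, limma adjusted p = 0.792).

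In the mice given fenofibrate over 9 wk of diet, Ido2, Afmid and Haao were again lower on the deficient diet, and Nadsyn1 was higher. Of 9 genes, 3 were lower, where 2.21% of the 11878 genes tested were lower, and 1 was higher, where 2.24% were higher. Groups did not overlap for 3 in the lower direction, where the share over all genes was 6.44%, and for 1 in the higher direction, where it was 7.82%. The median log2 difference was -0.03 over the 9 genes and 0.01 over all genes tested.

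With fenofibrate, Tdo2 was at 902, 919, 919 and 899 FPKM in Ctrl+FF 1 to 4 and at 1134, 743, 1076 and 1241 in B2D+FF 1 to 4. The Ctrl+FF mice were within a narrow band and the B2D+FF mice lay on both sides of it, with B2D+FF 2 lowest (log2 difference 0.18, 95% confidence interval -0.17 to 0.53). Ido2 was at 16.2, 13.7, 16.1 and 13.1 in Ctrl+FF and at 5.65, 3.98, 9.70 and 9.03 in B2D+FF, so the diets did not overlap and the mean was 48.1% of Ctrl+FF. The log2 difference was -1.02 (SE 0.226, limma adjusted p = 0.0384). It lost its call without any one of the Ctrl+FF mice or B2D+FF 1 (adjusted p from 0.0604 to 0.110), while the difference stayed between -1.07 and -0.95 in those fits.

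Afmid was at 13.0, 11.1, 13.5 and 10.5 FPKM in Ctrl+FF and at 5.62, 6.49, 7.99 and 8.62 in B2D+FF. The diets did not overlap and the mean was 59.7% of Ctrl+FF, a log2 difference of -0.68 (SE 0.133, limma adjusted p = 0.0244). Without Ctrl+FF 1, 2 or 3 the adjusted p for Afmid was between 0.0660 and 0.0807. Kmo was at 69.8, 64.9, 66.7 and 63.3 in Ctrl+FF and at 53.0, 53.1, 76.0 and 72.5 in B2D+FF. Here B2D+FF 1 and 2 were below every Ctrl+FF mouse and B2D+FF 3 and 4 above every one, giving a log2 difference of -0.07 (95% confidence interval -0.38 to 0.23). Kynu was at 19.4, 17.8, 17.3 and 17.3 in Ctrl+FF and at 19.7, 17.1, 21.1 and 21.2 in B2D+FF, with a log2 difference of 0.13 (95% confidence interval -0.08 to 0.33).

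Haao was at 238, 223, 242 and 205 FPKM in Ctrl+FF and at 157, 172, 166 and 164 in B2D+FF. Again the diets did not overlap, and the mean was 72.7% of Ctrl+FF (log2 difference -0.46, SE 0.0904, limma adjusted p = 0.0252). The Haao call was lost without Ctrl+FF 1, 2 or 3 or B2D+FF 1 or 4, with adjusted p from 0.0620 to 0.0949. At the fork, Acmsd was at 2.39, 2.19, 1.97 and 2.27 in Ctrl+FF and at 2.09, 2.92, 2.20 and 2.57 in B2D+FF. Those ranges overlapped, and the log2 difference was 0.10 (95% confidence interval -0.11 to 0.31). Qprt was at 55.9, 48.9, 49.3 and 49.4 in Ctrl+FF and at 43.0, 55.9, 49.9 and 50.6 in B2D+FF, a log2 difference of -0.03 (95% confidence interval -0.26 to 0.19).

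Nadsyn1, which amidates the nicotinate dinucleotide to NAD+, was at 6.51, 5.96, 6.42 and 6.37 FPKM in Ctrl+FF and at 8.31, 7.66, 8.83 and 8.71 in B2D+FF. Every B2D+FF mouse was above every Ctrl+FF mouse, with a mean of 133% of Ctrl+FF. The log2 difference was 0.36 (SE 0.0726, limma adjusted p = 0.0277). Of the 4 calls in this experiment it depended most on single libraries, since of the 8 refits with a mouse omitted it held in 1, that without B2D+FF 2, and had adjusted p from 0.0520 to 0.102 without any of the other 7. With all 4 groups in 1 fit its adjusted p was 0.0724.

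The libraries with the highest adipocyte or neutrophil markers were also left out of the fenofibrate table. Without B2D+FF 2, Ido2 (-0.81, limma adjusted p = 0.0380), Afmid (-0.64, 0.0498), Haao (-0.48, 0.0322) and Nadsyn1 (0.40, 0.0257) all kept their calls. Without Ctrl+FF 1 the log2 differences of Ido2 (-0.98, 0.110), Afmid (-0.64, 0.0807), Haao (-0.43, 0.0949) and Nadsyn1 (0.37, 0.0803) kept their direction and missed the threshold.

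**Figure D2:**
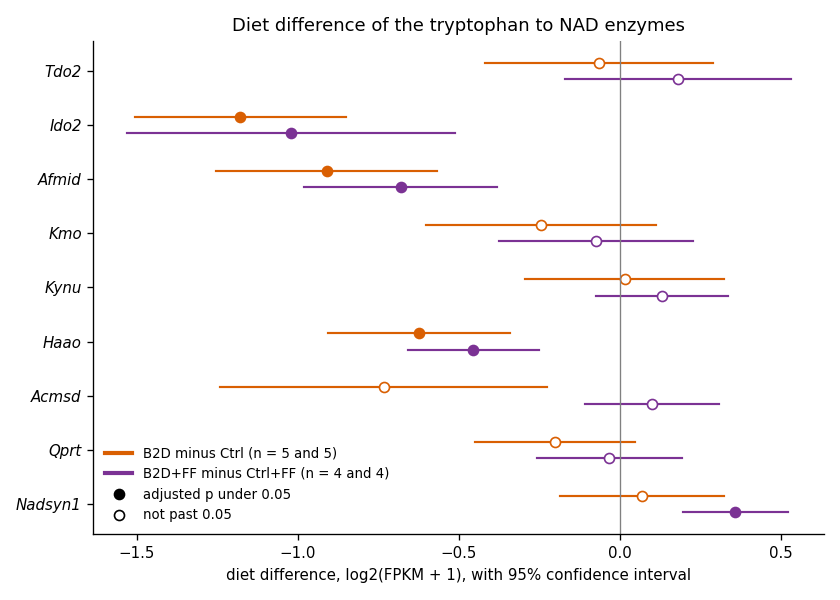
Difference between diets for each enzyme, in pathway order from top to bottom, on the log2(FPKM + 1) scale (horizontal axis) with 95% confidence intervals as lines. Orange is B2D minus Ctrl (n = 5 and 5), purple is B2D+FF minus Ctrl+FF (n = 4 and 4), and filled points have an adjusted p under 0.05. Ido2, Afmid and Haao are filled in both colours, and the intervals of Kmo include 0 in both.

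Whether the diet difference itself changed with fenofibrate and the longer diet was tested by 1 contrast over all 18 libraries, the B2D+FF minus Ctrl+FF difference less the B2D minus Ctrl difference. None of the 9 genes passed (limma, 0 of 9, where 0.228% of the 11862 genes tested were called in either direction, with 1 of the 9 at an unadjusted p under 0.05 and 0 of 9 also with voom). That gene was Acmsd, whose contrast was 0.83 (95% confidence interval 0.22 to 1.45, unadjusted p = 0.0105, limma adjusted p = 0.264). For Nadsyn1, called with fenofibrate and not without it, the contrast was 0.29 (95% confidence interval -0.01 to 0.59, limma adjusted p = 0.431), so the diet differences of Nadsyn1 are not shown to differ. The contrasts of Ido2, Afmid and Haao were 0.16 (95% confidence interval -0.43 to 0.74), 0.23 (-0.24 to 0.70) and 0.17 (-0.17 to 0.51), and that of Kmo was 0.17 (-0.30 to 0.65). All 9 estimates were above 0, with a median of 0.17, against a median of 0.01 over all genes tested, and only the interval of Acmsd excluded 0. Of the 42 tested genes around the pathway, described below, 31 were above 0 too, with a median of 0.16. The share of all genes above 0 was not counted, so nothing is read from this direction.

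The tables may be set side by side only as levels, with no test between them. Kynu was at 24.4 to 34.2 FPKM in Ctrl and 23.5 to 37.5 in B2D, and at 17.3 to 19.4 in Ctrl+FF and 17.1 to 21.2 in B2D+FF, so no mouse of the fenofibrate table reached the lowest mouse of the other. The hepatocyte marker sums were likewise lower throughout the fenofibrate table, and their part in these levels was not tested. Acmsd was at 3.85 to 9.12 in Ctrl and at 1.97 to 2.39 in Ctrl+FF, again with no overlap between the control diets. Tdo2, Ido2, Afmid, Kmo, Haao, Qprt and Nadsyn1 had overlapping ranges in Ctrl and Ctrl+FF.

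Acmsd and Qprt compete for the same carbon, Acmsd directly and Qprt after the spontaneous ring closure, so their levels were also set against each other within each liver. Qprt FPKM per Acmsd FPKM was 13.1, 9.61, 5.81, 6.97 and 8.60 in Ctrl and 10.2, 20.9, 13.9, 20.2 and 8.80 in B2D. It was 23.4, 22.3, 25.0 and 21.7 in Ctrl+FF and 20.5, 19.2, 22.6 and 19.7 in B2D+FF. B2D 2, B2D 3 and B2D 4 exceeded every Ctrl mouse, and the fenofibrate diets overlapped. On the log2 scale the Acmsd to Qprt ratio was -3.08 ± 0.446 in Ctrl and -3.80 ± 0.564 in B2D, and -4.53 ± 0.0892 in Ctrl+FF and -4.36 ± 0.105 in B2D+FF, each with its SD. The spread between mice was several times wider without fenofibrate than with it. These ratios are of messenger RNA and give no flux, and no test was made of them.

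**Figure D3:**
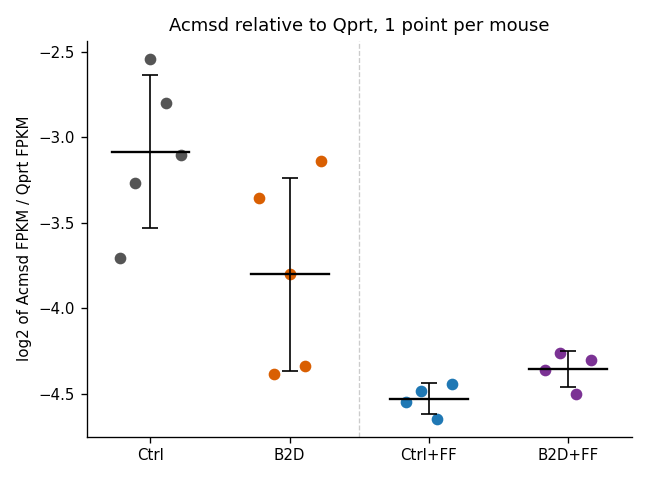
Log2 of Acmsd FPKM over Qprt FPKM in each liver (vertical axis), with the mean as a long bar and 1 SD as whiskers, for Ctrl and B2D (n = 5 each) and Ctrl+FF and B2D+FF (n = 4 each). The dashed line parts the separately normalized tables. Ctrl lies highest with a mean of -3.08, and Ctrl+FF and B2D+FF lie closely packed at -4.53 and -4.36.

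The genes that feed, drain or bypass the route were taken from a list of 52 written from general knowledge, with earlier results of these data known. In B2D, 43 were tested, 4 were lower (Nampt, Nmrk1, Inmt and Pdxk), where 1.94% of all genes tested were lower, and 1 was higher (Ddc), where 0.769% were, with 13 at an unadjusted p under 0.05 and a median log2 difference of -0.06. With fenofibrate, 41 were tested, 2 were lower (Inmt and Kyat1), where 2.21% of all genes were, and 0 were higher, where 2.24% were (limma, 17 at an unadjusted p under 0.05), with a median of 0.03. Among the 42 tested for the contrast between experiments 0 passed (limma, 10 at an unadjusted p under 0.05, 0 with voom, and 1, Nampt, with array weights). In B2D the diets did not overlap for 3 in the lower and 1 in the higher direction, where the shares over all genes were 2.89% and 2.08%. With fenofibrate they did not overlap for 5 and 5, where the shares were 6.44% and 7.82%. Nothing is read from these shares, because the list was written with results known. With no filter on low FPKM, where more genes are tested, the B2D calls of Nmrk1 (limma adjusted p = 0.0527), Ddc (0.0751), Inmt (0.0780), Nampt (0.105) and Pdxk (0.105) and the fenofibrate call of Inmt (0.0529) were lost.

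Salvage genes make NAD+ from preformed vitamin. Nampt, the rate-limiting enzyme of nicotinamide salvage, was at 24.0, 31.1, 28.3, 33.4 and 30.1 FPKM in Ctrl and at 16.0, 13.5, 24.8, 15.1 and 20.0 in B2D. B2D 3 was above Ctrl 1 and the other 4 B2D mice were below all Ctrl mice (log2 difference -0.71, SE 0.156, limma adjusted p = 0.0364). The Nampt call was lost without any mouse but Ctrl 1, B2D 3 or B2D 5, with adjusted p from 0.0529 to 0.105, and also after quantile normalization (0.0516). With fenofibrate Nampt was at 24.9 to 31.5 in Ctrl+FF and 24.4 to 31.0 in B2D+FF, a log2 difference of 0.01 (95% confidence interval -0.25 to 0.27). The contrast between the experiments was 0.72 (95% confidence interval 0.28 to 1.16, limma adjusted p = 0.159), and it passed with array weights (0.81, adjusted p = 0.0373). With no filter on low FPKM the adjusted p of this contrast was 0.269.

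Nmrk1, the kinase that salvages nicotinamide riboside, was at 12.1, 18.1, 12.5, 12.2 and 7.83 FPKM in Ctrl and at 4.69, 5.71, 3.95, 4.10 and 6.71 in B2D. The diets did not overlap (log2 difference -1.15, SE 0.189, limma adjusted p = 0.0108). With fenofibrate Nmrk1 was 10.6 to 16.8 and 6.94 to 9.07, with no overlap and a log2 difference of -0.53 that missed the threshold (limma adjusted p = 0.0663), though it passed at a mean FPKM of at least 5 (0.0417) and with voom (0.0357). Its adjusted p there was 0.150 with all 4 groups in 1 fit and between 0.0798 and 0.137 without single mice. Nmrk2 was listed at 0 in every library. Nnmt, which methylates nicotinamide for disposal, varied from 37.7 to 171 in Ctrl and was at 91.5 to 123 in B2D, so the diets overlapped (limma adjusted p = 0.412). With fenofibrate Nnmt was at 12.6 to 41.2 in Ctrl+FF and 39.7 to 88.1 in B2D+FF, a log2 difference of 1.21 (95% confidence interval 0.35 to 2.08, limma adjusted p = 0.109).

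Pdxk, a kinase that helps make pyridoxal phosphate, the cofactor of Kynu and of the kynurenine aminotransferases, was at 8.70, 6.95, 6.76, 8.37 and 5.95 FPKM in Ctrl and at 4.84, 3.84, 5.56, 4.87 and 3.31 in B2D. The diets did not overlap (log2 difference -0.61, SE 0.134, limma adjusted p = 0.0364). For Pdxk the adjusted p was between 0.0613 and 0.105 without Ctrl 1, Ctrl 2, Ctrl 4, B2D 2, B2D 4 or B2D 5. With fenofibrate Pdxk was again apart, at 9.26 to 11.4 and 4.22 to 7.89 (log2 difference -0.60, limma adjusted p = 0.0647, between 0.0336 and 0.0491 under 6 other settings). Its adjusted p there was 0.145 with no filter and between 0.0519 and 0.163 without single mice. Both genes of FAD supply, Rfk and Flad1, were tested and neither passed in either experiment, with log2 differences between 0.14 and 0.33. With fenofibrate Rfk was apart, at 22.3 to 28.1 in Ctrl+FF and 30.4 to 35.4 in B2D+FF (limma adjusted p = 0.0817), while the diets overlapped for Flad1 (0.151).

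Kynurenine aminotransferases divert kynurenine to kynurenate. Kyat1 was at 24.9, 30.9, 20.4, 23.0 and 26.8 FPKM in Ctrl and at 19.0, 10.7, 20.7, 11.8 and 17.4 in B2D, where B2D 3 was above Ctrl 3 (log2 difference -0.66, 95% confidence interval -1.06 to -0.27, limma adjusted p = 0.0804, and between 0.0155 and 0.0497 under 4 other settings). The adjusted p of Kyat1 in B2D was 0.201 with no filter and between 0.0540 and 0.205 without single mice. With fenofibrate Kyat1 was at 31.1, 27.4, 35.5 and 32.3 and at 21.6, 23.3, 22.8 and 22.9, with no overlap (log2 difference -0.46, SE 0.0916, limma adjusted p = 0.0258). That Kyat1 call was lost without Ctrl+FF 1, 3 or 4 or B2D+FF 1 or 4 (adjusted p from 0.0585 to 0.0807) and with all 4 groups in 1 fit (0.161). Kyat3 and Aadat, which carry out the same reaction, had log2 differences of -0.06 and -0.11 in B2D and of 0.32 and 0.33 with fenofibrate, none past the threshold. None of the 8 tested genes of the glutarate branch downstream of Acmsd, and none of the 6 tested NAD+ consumers, passed in either experiment (limma). With fenofibrate the branch genes Dld (limma adjusted p = 0.0726) and Dlst (0.0810) and the consumer Parp2 (0.104) were nevertheless higher with no overlap between diets. The diets overlapped for the other tested genes of these groups.

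On the routes that use tryptophan without opening its ring, Inmt, which methylates tryptamine, was at 297, 374, 198, 454 and 199 FPKM in Ctrl and at 111, 125, 113, 128 and 161 in B2D. The diets did not overlap (log2 difference -1.18, SE 0.225, limma adjusted p = 0.0204, but 0.0518 without Ctrl 1 and 0.0668 without Ctrl 2). With fenofibrate Inmt was at 414 to 685 and 215 to 347, again apart (log2 difference -1.08, SE 0.190, limma adjusted p = 0.0171, 0.0572 without Ctrl+FF 1 and 0.0644 without Ctrl+FF 2). Ddc, which makes tryptamine and serotonin, was at 5.60 to 7.84 in Ctrl and 9.08 to 11.8 in B2D, with no overlap (log2 difference 0.51, SE 0.109, limma adjusted p = 0.0326). The adjusted p of Ddc was between 0.0543 and 0.0844 without Ctrl 1, Ctrl 2, Ctrl 4, B2D 1, B2D 2 or B2D 4. With fenofibrate the diets overlapped for Ddc (log2 difference -0.24), and the contrast was -0.76 (95% confidence interval -1.20 to -0.32, limma adjusted p = 0.142). Tph1, which starts serotonin synthesis, was listed at 0 in all libraries.

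**Figure D4:**
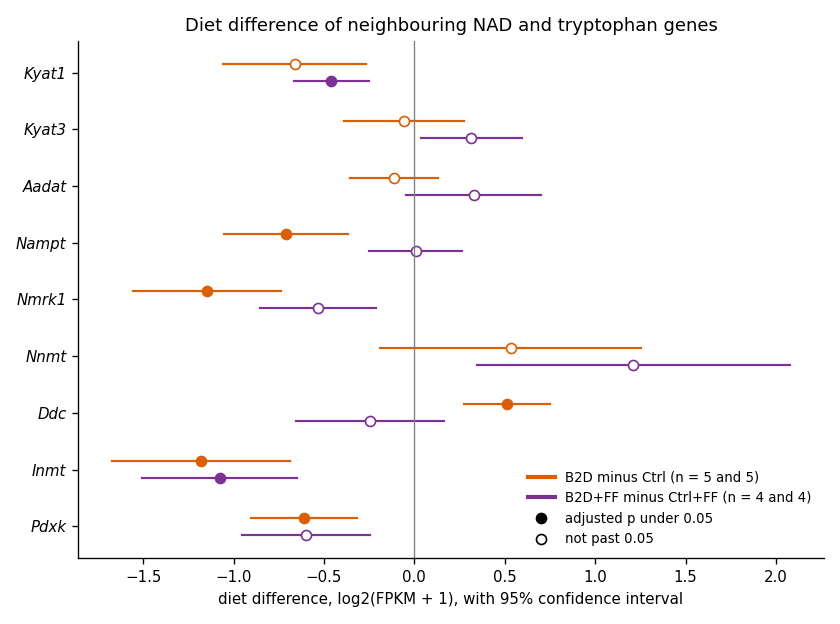
Difference between diets on the log2(FPKM + 1) scale (horizontal axis) for 9 genes that feed, drain or bypass the pathway, with 95% confidence intervals as lines. Orange is B2D minus Ctrl (n = 5 and 5), purple is B2D+FF minus Ctrl+FF (n = 4 and 4), and filled points have an adjusted p under 0.05. Inmt is filled in both colours, and Nampt is filled at -0.71 in orange and lies at 0.01 in purple.

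The genes whose levels moved most like those of a pathway member were found by Pearson's r of log2(FPKM + 1) in each table, taking the smaller of the r over 10 libraries and the r over 8, among 9936 genes. For Kmo these were Cped1 (0.85), Enox2 (0.82), Sacm1l (0.82), Slco2b1 (0.81) and Dpp4 (0.81). For Ido2, the member with the smallest p, they were Slc46a3 (0.94), Serping1 (0.91), Pecr (0.90), Bco2 (0.90) and Hsd3b3 (0.89). The libraries of a table share their diet groups and scaling, so these values describe likeness across these mice only.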

How the data were processed

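The members and the surrounding gene lists were chosen with earlier results of these data known. Liver mRNA libraries, 1 per mouse, were sequenced as paired ends. Per the methods, the authors aligned the reads with STAR to mm10, counted them per gene with featureCounts and tested genes with DESeq2, and the submitters' processing notes name the same tools without versions. They deposited 1 table of FPKM values per experiment, each normalized on its own, called RPKM in the methods. FPKM times gene length gave whole multiples of 1 step per library (100% of values, within 0.02 reads), from which the reads were recovered. No sample column was left unmatched, and mice are numbered in accession order, which pairs none of them.

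Genes whose mean FPKM reached 0.5 were tested on log2(FPKM + 1) by limma 3.58.1 in R 4.3.3 with a trend in the variance, each table alone, with Benjamini-Hochberg adjustment over all genes tested and a threshold of 0.05. The contrast between experiments used 1 fit of 18 libraries. The fits were tested on simulated data. Named are all 9 members, listed neighbours that passed in any comparison plus Ido1, Nampt, Nnmt, Kyat1, Kyat3 and Aadat, and the 5 genes most like Kmo and most like the member with the smallest p. Tph1, Nmrk2, Rfk, Flad1, Dld, Dlst, Parp2, Clec4f and the PPARα targets were named after their values were seen. Other settings tried were 0.1 as the pseudocount, the filter removed or raised to a mean of 5 FPKM, upper-quartile rescaling, quantile normalization, array weights, voom on the recovered reads, all 4 groups in 1 fit, and each library left out in turn. Depth limits genes with few reads. Protein sequences were not used here, and some items are not reported here.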

Additional observations from a re-analysis of the deposited data

Results flagged for a closer look

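Among the 40 sets of values checked, 9 genes and the Acmsd to Qprt ratio in 4 groups each, a mouse stood apart from the rest of its group in 2 (Dixon's test at the 95% level), and chance alone flags about 1 set in 20. Kynu in Ctrl 1 was at 24.4 FPKM, with the other Ctrl mice at 31.6 to 34.2. Without Ctrl 1 the log2 difference of Kynu between B2D and Ctrl was -0.07 in place of 0.01, and neither passed. Qprt in Ctrl+FF 1 was at 55.9 FPKM, with the other Ctrl+FF mice at 48.9 to 49.4. Without Ctrl+FF 1, which also had the highest adipocyte marker sum of its table, the log2 difference of Qprt was 0.01 in place of -0.03, and neither passed.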

How the results depend on the processing

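Ido2 passed in B2D under all 8 other settings and Afmid and Haao under 7, failing with no filter on low FPKM (limma adjusted p = 0.0535 and 0.0736), where more genes are tested. With fenofibrate Ido2 (0.103) and Afmid (0.0621) also failed with no filter, and Haao passed under all 8. The count of pathway genes called moved from 3 to 1 in B2D and from 4 to 2 with fenofibrate under no filter, was 2 to 3 and 0 to 4 without single mice (0 without Ctrl+FF 1, 2 or 3), and for the contrast was 0 to 0. A mean FPKM of at least 5 left out Acmsd.

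Over all genes, 67 were called in B2D with no filter, 731 with all 4 groups in 1 fit and 98 to 332 without single mice, against 313. With fenofibrate there were 272 with no filter, 885 with array weights and 175 to 596 without single mice, against 529, and upper-quartile rescaling gave 366 lower and 223 higher against 263 and 266. For the contrast there were 16 with a pseudocount of 0.1, 136 with array weights, 13 with voom and 17 to 66 without single mice, against 27. There upper-quartile rescaling gave 18 lower and 13 higher against 12 and 15. The cause of these shifts was not tested. The mean log2 Acmsd to Qprt ratio ranged from -3.22 to -2.93 in Ctrl, -3.97 to -3.66 in B2D, -4.56 to -4.49 in Ctrl+FF and -4.39 to -4.31 in B2D+FF without single mice.

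No called difference changed sign. Among uncalled ones, quantile normalization turned Tdo2 (0.18) and Kyat3 (0.000549) in B2D, Nampt (-0.000343) with fenofibrate, and Kynu (-0.010), Inmt (-0.16) and Pdxk (-0.013) in the contrast. Array weights turned Kynu (-0.0038) in B2D and Kmo (0.0017) with fenofibrate, and upper-quartile rescaling turned Nampt (-0.051) with fenofibrate and Pdxk (-0.067) in the contrast. Without single mice the differences that crossed 0 ran in B2D from -0.070 to 0.12 for Kynu, from -0.15 to 0.044 for Kyat3, from -0.15 to 0.042 for Tdo2, from -0.012 to 0.14 for Nadsyn1, with fenofibrate from -0.089 to 0.035 for Qprt, from -0.048 to 0.077 for Nampt, from -0.17 to 0.0060 for Kmo, in the contrast from -0.078 to 0.18 for Pdxk, from -0.059 to 0.24 for Inmt, from -0.00093 to 0.37 for Ido2.

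No paired analysis was possible because the labels give each mouse its own number and nothing pairs mice across diets. Depth was at least 15320729 reads on genes per library, and the values of Acmsd rest on the fewest reads.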
